A study of Mus musculus with 9 samples.

Results

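The cytosolic ribosomal protein genes were followed as a set in mouse liver. Members were the symbols of the deposited table that match the gene name patterns Rps or Rpl plus a number (with an optional a, x or l), Rplp0 to Rplp2, or Rpsa, and whose value was 1 or more in 3 or more of the 9 libraries. The rule uses names and this filter, not a difference between groups. Of 80 matching symbols 78 passed, 31 of the small (40S) and 47 of the large (60S) subunit, among 10388 genes tested and 18148 symbols in the table. The 2 that failed were the paralogs Rpl3l, the striated muscle form of Rpl3, listed at 0.03 to 0.16, and Rpl39l, a testis form of Rpl39, listed at 0.12 in DEHP replicate 3 and at 0 elsewhere. Just inside the filter stood Rpl32l, at 2.01 to 5.06. The known ribosomal protein genes Rps3a1 and Fau have symbols outside the patterns and are given apart.

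Liver messenger RNA of C57BL/6J mice was profiled in 9 libraries, 3 per group, after 8 weeks of gavage. DEHP_GTP mice received di(2-ethylhexyl) phthalate, a plasticizer, at 1500 mg/kg/d in corn oil, together with green tea polyphenols at 70 mg/kg. DEHP mice received the same phthalate dose in corn oil without polyphenols, and Control mice received distilled water. The study asked whether the polyphenols lessen liver injury by the phthalate. The design also had mice on corn oil alone and on polyphenols alone. They were not analysed here, and effects of phthalate and oil cannot be told apart. Age and sex are not in the labels. Nothing in the labels ties each library to an animal of its own, so the p-values reflect spread between samples that may be technical.

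A cytosolic ribosome is built from these proteins and ribosomal RNA. The small subunit reads the messenger RNA while the large subunit joins the amino acids. Their messenger RNAs start with a C followed by a run of pyrimidines, the 5′ terminal oligopyrimidine (TOP) motif, through which the kinase complex mTORC1 and the protein Larp1 set their translation and stability. In liver the set is highly expressed and is known to follow feeding and growth.

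Sequences around the start sites are shown because this motif is the sequence feature described for these genes. RefSeq start sites (GRCm38.p6) were found for 58 of the 78 members. Each line below runs 5′ to 3′ on the sense strand, 15 bases before to 15 bases after the start, with the longest run of C and T in capitals where it reaches 8 bases. The first 8 hold such a run, among them the S6 kinase target Rps6 and some of the most abundant members. In these 8 the run begins before the annotated start, from position -14 (Rpl7a) to -1 (Rps6). The lines therefore do not show the motif at the first annotated base. The last pair, Rpl36a and Rps12, is shown because these genes stood among the largest differences under DEHP and have no run of 8 in this window.
Rpl7a, chr2:26910792-26910821 (plus strand): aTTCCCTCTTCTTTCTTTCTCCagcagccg
Rpl35, chr2:39005117-39005146 (minus strand): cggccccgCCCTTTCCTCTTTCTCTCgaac
Rpl15, chr14:18270972-18271001 (minus strand): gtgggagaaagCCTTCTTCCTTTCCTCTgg
Rps10, chr17:27635230-27635259 (minus strand): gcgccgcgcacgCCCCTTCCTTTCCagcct
Rplp2, chr7:141447636-141447665 (plus strand): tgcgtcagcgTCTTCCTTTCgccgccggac
Rpl38, chr11:114668565-114668594 (plus strand): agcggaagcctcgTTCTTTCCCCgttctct
Rps27, chr3:90213634-90213663 (minus strand): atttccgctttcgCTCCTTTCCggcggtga
Rps6, chr4:86857353-86857382 (minus strand): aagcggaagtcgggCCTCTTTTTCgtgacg
Rpl36a, chrX:134585639-134585668 (plus strand): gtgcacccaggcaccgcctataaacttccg
Rps12, chr10:23787195-23787224 (minus strand): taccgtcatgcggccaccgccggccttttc
A run of at least 8 C or T on the sense strand in this window was held by 27 of the 58 members (46.6%), against 1235 of 8405 genes tested that had a start in the table (14.7%). Any start counted for genes with several. CCGGAAGT, a core of ETS factor sites, was in the 300 bases around the start, on either strand, for 12 members (20.7%) and 9.83% of genes tested. AAGATGGC, a core of YY1 sites, was there for 5 members (8.62%) and 5.7% of genes tested. These counts describe letters in a window, not binding.

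Deposited values were scaled by depth and transcript length (of the FPKM or TPM kind, which of them is not stated), and library totals ran from 789076 to 801286 in DEHP_GTP, 810583 to 863300 in DEHP and 819494 to 857834 in Control livers. The depth in reads is unknown. The major urinary protein (Mup) genes held 11.6%, 6.53% and 7.09% of the total in DEHP_GTP livers, 2.37%, 8.49% and 5.62% in DEHP livers and 20.3%, 16.1% and 20.1% in Control livers. Hepatocyte markers were high in every library, and of 6 only Alb was called, lower in DEHP than in Control livers. Of the 9 adipocyte markers 3 passed the filter and 0 were called. Their summed value was 22.4 to 53.8 in DEHP_GTP, 44.2 to 364.9 in DEHP and 11.9 to 1573 in Control livers. Control replicates 1 and 2 held the highest sums, and Adipoq, Plin1, Ucp1 and Lep were listed at 0 in the other 7 libraries. Red blood cell markers summed to 777 to 1214 in DEHP_GTP, 496 to 2339 in DEHP and 1038 to 2154 in Control livers, with 0 of 3 tested called. Kupffer cell markers gave 0 calls, yet all 5 tested were above 0 in DEHP against Control livers, with a median log2 fold change of 0.38, and they summed to 38.7 to 68.7 in DEHP_GTP, 43.3 to 63.9 in DEHP and 34.97 to 39.8 in Control livers. DEHP livers lay above Control livers in that sum. Endothelial, stellate and bile duct markers gave 0 calls, as did the 1 lymphocyte marker that passed, and no striated muscle marker passed. Of the 26 markers tested outside hepatocytes, 6 reached an unadjusted p under 0.05 in DEHP against Control livers, a smaller share than the 3948 of all 10388 genes tested. Limma without trend and robust estimates called 3 of the 26. The part of these differences in the results below was not tested.

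Levels differed widely between members. By mean value over the 9 libraries, which is per transcript length, 9 members exceeded 1000, 64 lay between 100 and 1000 and 5 lay under 100. The 9 highest were Rpl38 (1666), Rps27 (1499), Rps26 (1364), Rpl10 (1272), Rplp1 (1264), Rpl41 (1220), Rps2 (1117), Rpl28 (1036) and Rps15 (1007). The 5 lowest were Rpl22 (58.9), Rps20 (34.7), Rps15a (14.7), Rps6 (13.9) and Rpl32l (3.73). Of these, Rps6 has a copy, identical to its coding sequence, listed under another symbol at a far higher value. That order was kept across livers, with a Spearman correlation of member values between libraries of 0.971 to 0.995 over 36 pairs of libraries and 78 members. The 4 members Rpl23, Rpl32l, Rpl36 and Rpl37 differed by more than 1.5-fold between libraries of at least 1 group.

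As a set, the members took a larger share of the total in phthalate-treated livers. Their summed value was 4.6%, 5.28% and 5.33% of the total in DEHP_GTP livers, 5.83%, 5.64% and 5.28% in DEHP livers and 3.99%, 4.3% and 4.24% in Control livers. Every library of both phthalate groups lay above all 3 Control libraries, and the DEHP_GTP and DEHP ranges overlapped between 5.28% and 5.33%. With the Mup genes left out of the total, the shares were 5.2%, 5.65% and 5.74% in DEHP_GTP livers, 5.97%, 6.17% and 5.6% in DEHP livers and 5.01%, 5.12% and 5.3% in Control livers. DEHP_GTP replicate 1 then lay inside the Control range, and the 3 DEHP libraries stayed above it. In bulk liver, fewer cells of a type and less RNA per cell cannot be told apart. The subunits kept their proportion, with a summed 60S value 1.41 to 1.45 times the summed 40S value in all 9 libraries.

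The median member stood at 410.6, 472 and 462.5 in DEHP_GTP livers, 508.5, 531 and 488.1 in DEHP livers and 374.7, 383.1 and 394.4 in Control livers. These 3 ranges did not overlap. DEHP_GTP replicate 1 was low within its group, with 43 members above every Control library, against 74 in each of the other DEHP_GTP libraries and 70 to 75 in the DEHP libraries.

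**Figure D1:**
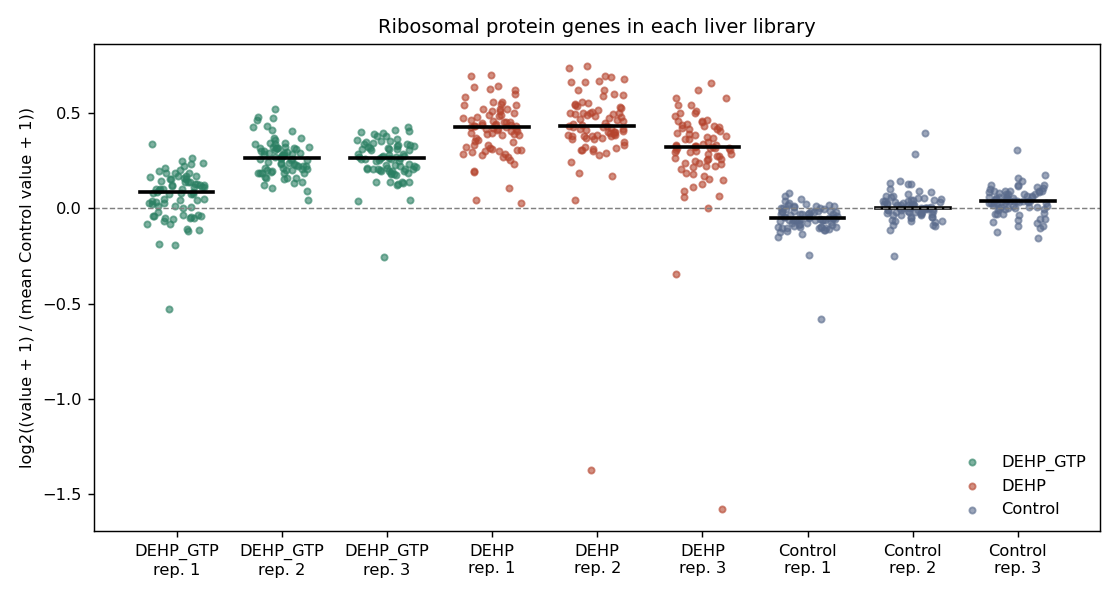
Each point is 1 of the 78 ribosomal protein genes in 1 library, as the log2 ratio of its deposited value plus 1 to the mean Control value plus 1, and black bars are medians. The medians were 0.09, 0.26 and 0.26 in DEHP_GTP, 0.43, 0.43 and 0.32 in DEHP and -0.05, 0.00 and 0.04 in Control libraries, and the lowest points, in DEHP replicates 2 and 3, are Rpl23.

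The comparison of DEHP with Control livers asked how phthalate in oil altered ribosomal protein transcripts. Most members were higher in DEHP livers by a similar, modest amount. With limma on log2(value + 1), on which low genes change by less than their true fold, 66 of 78 members were called higher at an adjusted p below 0.05 and 0 lower, while 21.6% of all genes tested were called higher and 3.91% lower. The median member was 0.40 higher on the log2 scale (1.32-fold), against 0.12 for the median gene tested, a distance of 0.28. The difference was positive for 77 of 78 members, for 68 after quantile normalization and for 62 of 77 with a length after the trend on transcript length was removed. Libraries of the groups did not overlap for 70 members, all higher in DEHP, where 33.8% of genes tested were higher and 7.65% lower without overlap.

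Among the 31 small-subunit members, 25 rose and the median difference was 0.39 on the log2 scale. Rps12, a protein of the 40S head, was at 582, 695 and 696 in DEHP_GTP livers, 848, 837 and 744 in DEHP livers and 501, 499.8 and 569 in Control livers. All DEHP values lay above all Control values, with a log2 fold change of 0.63 (SE 0.0992, limma adjusted p = 0.00189). Rps28, which lies near the exit of the messenger RNA channel, was at 347, 393 and 382 in DEHP_GTP livers, 495, 530.4 and 428 in DEHP livers and 287, 308 and 359.9 in Control livers. DEHP replicate 3 was the lowest of its group and still above Control replicate 3, and the log2 fold change was 0.60 (SE 0.109, limma adjusted p = 0.00348).

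Rps27l and Rpsa, small-subunit members also known for roles outside the core particle, were among those that rose. Rps27l, a p53-responsive paralog of Rps27, was at 387, 491 and 411 in DEHP_GTP livers, 471, 552 and 530.4 in DEHP livers and 370.0, 343 and 381 in Control livers. The log2 fold change was 0.50 (SE 0.104, limma adjusted p = 0.00652) and the groups did not overlap. Rpsa, also known as the laminin receptor precursor, was at 331, 382 and 403 in DEHP_GTP livers, 418, 407 and 402 in DEHP livers and 308, 334 and 365 in Control livers. It stood at the edge of the threshold, with 0.29 (SE 0.0936, limma adjusted p = 0.0454), and its lowest DEHP value, 402, lay above its highest Control value, 365. Rps27l was called in 12 of 17 other settings and Rpsa in 3.

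Of the 47 large-subunit members 41 rose, with a median difference of 0.40 on the log2 scale. Rpl36a, which sits at the exit (E) site for transfer RNA, showed the largest difference among the members called. It was at 428, 486 and 440.0 in DEHP_GTP livers, 549, 568 and 534 in DEHP livers and 324, 351 and 339.8 in Control livers. The 3 groups did not overlap, with DEHP highest and Control lowest, and the log2 fold change of DEHP over Control was 0.70 (SE 0.0771, limma adjusted p = 0.000417). Rpl39, a small protein lining the tunnel through which the new chain leaves, was at 289.6, 346 and 308 in DEHP_GTP livers, 384, 401 and 352 in DEHP livers and 227, 254 and 265 in Control livers. It too stood apart in DEHP livers, with 0.61 (SE 0.0951, limma adjusted p = 0.00181).

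The stalk of the large subunit, which recruits the elongation factors, is built on Rplp0 with pairs of Rplp1 and Rplp2. Rplp1 was at 1204, 1228 and 1305 in DEHP_GTP livers, 1461, 1626 and 1540.3 in DEHP livers and 934, 995 and 1082 in Control livers, and its log2 fold change of DEHP over Control was 0.62 (SE 0.084, limma adjusted p = 0.000958). Rplp2 was at 324, 454 and 424 in DEHP_GTP livers, 512, 495 and 469 in DEHP livers and 344, 358 and 351 in Control livers, with a log2 fold change of 0.48 (SE 0.115, limma adjusted p = 0.0122). Rplp0 was at 397, 427 and 419 in DEHP_GTP livers, 451, 449 and 414 in DEHP livers and 340.5, 382 and 372 in Control livers, with 0.26 (SE 0.0773, limma adjusted p = 0.031). All 3 rose, and in each the DEHP libraries lay above all Control libraries. Rplp1 was called in 15 of 17 other settings, Rplp2 in 13 and Rplp0 in 7. Whether the stalk members differed from one another in their change was not tested.

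**Figure D2:**
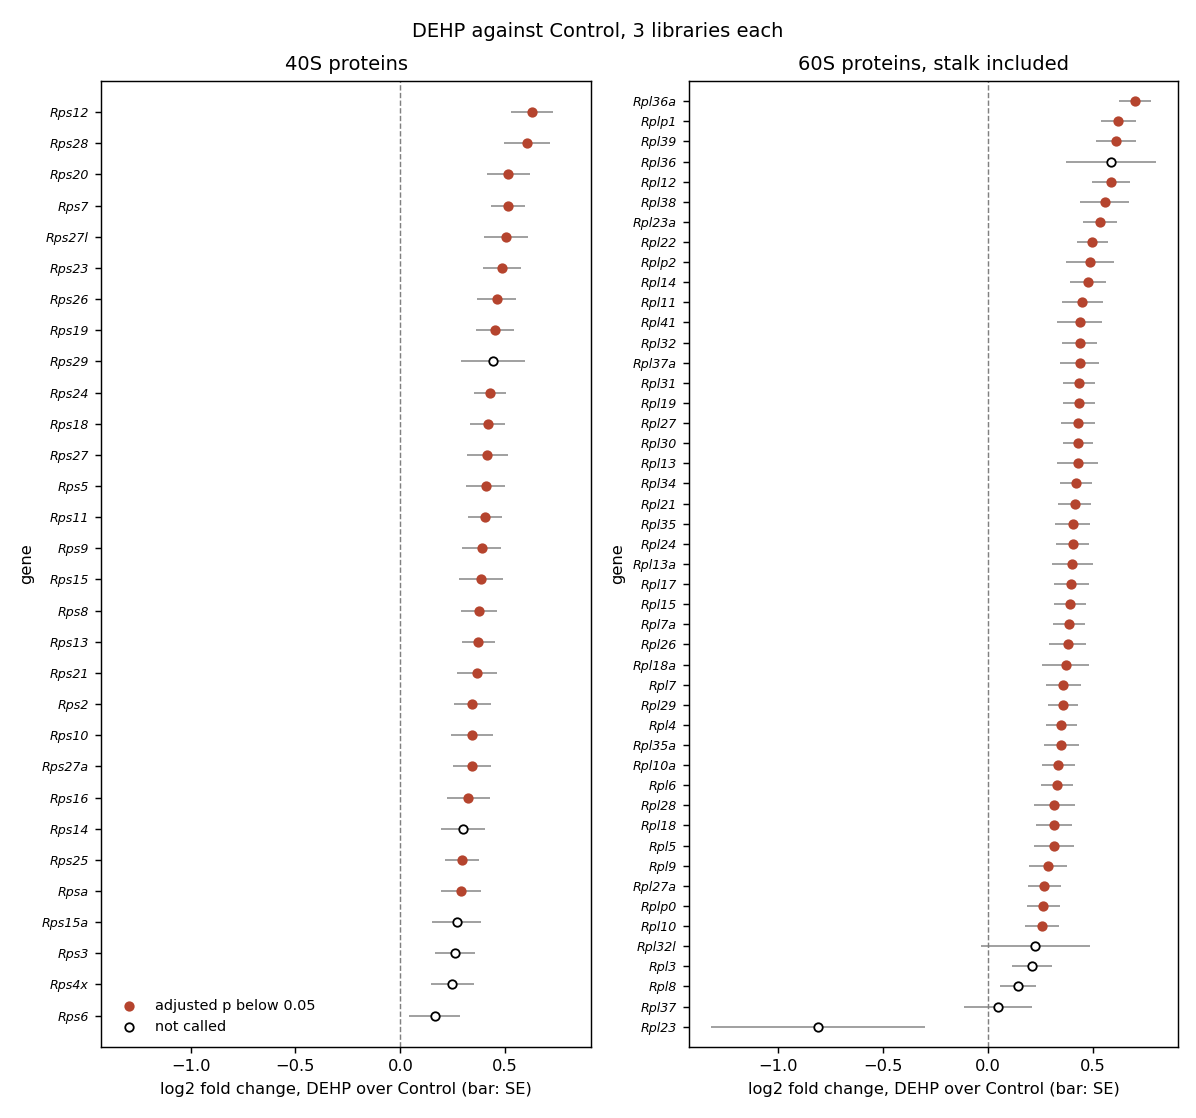
Log2 fold change of DEHP over Control for 77 of the 78 members (x axis, log2(value + 1) scale), with its limma standard error as a bar, split by subunit and ordered by size. Filled points passed the adjusted p threshold and open points did not, and the values run from -0.81 for Rpl23 to 0.70 for Rpl36a.

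The other 12 members were not called. Rpl36, at 0.59 (SE 0.215), and Rps29, at 0.44 (SE 0.152), had differences as large as called members, and their libraries spread more widely within groups. Rps14, Rps15a, Rps3, Rps4x, Rpl32l, Rpl3, Rps6 and Rpl8 lay between 0.14 and 0.30. Rpl37, at 0.05, and Rpl23, at -0.81, are described together with Rps6.

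Leaving out Control replicate 1 left 43 calls (55.1% of members against 14.2% of all genes called higher), and with Control replicate 3, the Control library without the fat transcripts, as the lone control 3 remained (Rpl36a, Rpl22 and Rpl30), at a member median of 0.35 and under the assumption that this library varies like the other groups. That was 3.85% of members, below the 6.52% of all genes. Calls also depended on how libraries were scaled, as the plot of calls by processing shows, and the members' share of calls came near the background under quantile normalization (9 calls, 11.5% against 8.88%) and below it once the length trend was removed (4 calls, 5.19% against 9.99%).

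**Figure D3:**
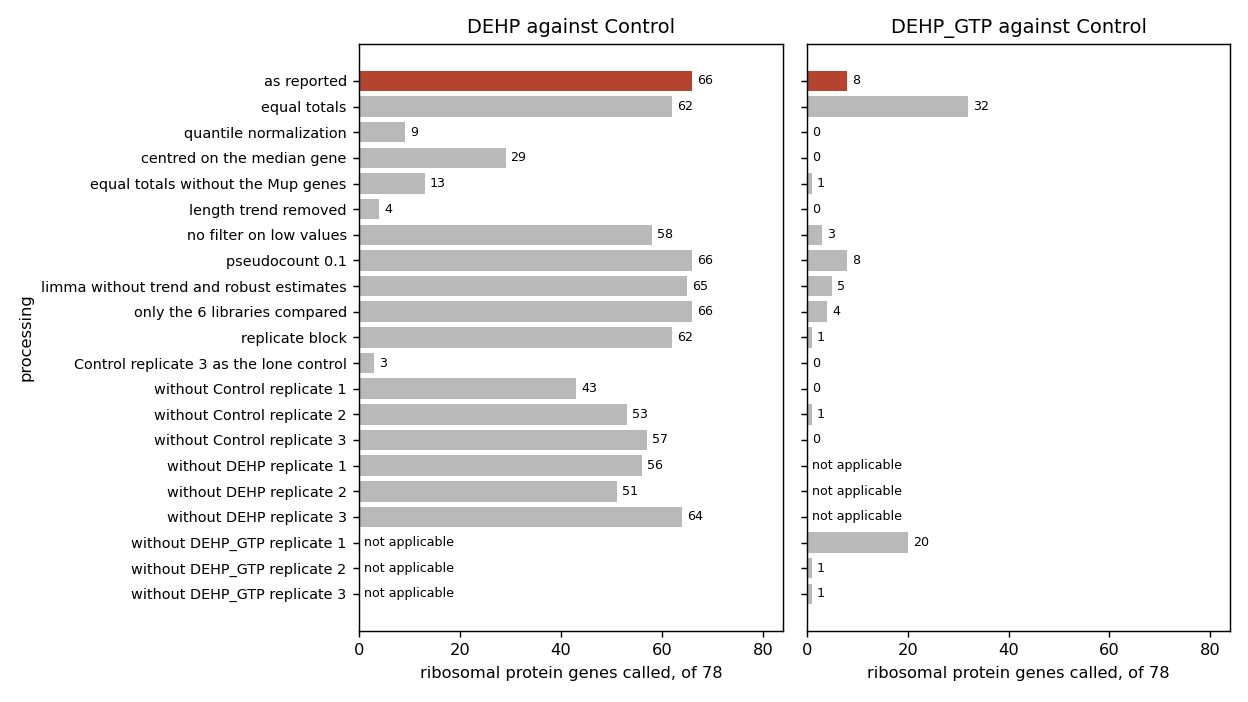
Bars give the number of the 78 members called by limma under each processing (y axis), for DEHP against Control (left) and DEHP_GTP against Control (right). In the left panel counts run from 66 as reported to 3, and in the right from 32 with equal totals to 0, where 8 were called as reported.

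Each member was also set against the set itself, by subtracting the member median of each library before the fit. Apart from the added 1, this measure does not change when a whole library is rescaled. Against that median 3 members departed in DEHP compared with Control livers. Of all genes tested 43.6% did, against 25.5% called in either direction before the subtraction. In every comparison the subtraction centres members on themselves and moves other genes by the members' shift. Member counts therefore cannot be set against such shares. Relative to the set, Rpl36a was at 0.06, 0.04 and -0.07 in DEHP_GTP, 0.11, 0.10 and 0.13 in DEHP and -0.21, -0.12 and -0.21 in Control livers, a departure of 0.29 (SE 0.0821, limma adjusted p = 0.0147). Rps12 was at 0.50, 0.56 and 0.59 in DEHP_GTP, 0.74, 0.65 and 0.61 in DEHP and 0.42, 0.38 and 0.53 in Control livers, a departure of 0.22 (SE 0.0847, limma adjusted p = 0.0469). These 2 rose more than the typical member, without overlap between DEHP and Control livers. Rpl8, a protein near the peptidyl transferase centre, went the other way within the set, at -0.24, -0.28 and -0.17 in DEHP_GTP, -0.24, -0.33 and -0.31 in DEHP and -0.09, -0.02 and 0.02 in Control livers, a departure of -0.26 (SE 0.0827, limma adjusted p = 0.0242). Its own deposited values overlapped, at 348, 387 and 409.9 in DEHP_GTP livers, 431, 423 and 392 in DEHP livers and 351, 377 and 400.5 in Control livers. Without Control replicate 1, 0 members departed. The departure of Rps12 was also lost in 4 of 5 other fits (without trend and robust estimates, with only the 6 libraries, with a pseudocount of 0.1 and with a replicate block) and in 4 of 6 fits that left out 1 library. That of Rpl8 was lost in 4 of those 6 and that of Rpl36a in 1. In DEHP_GTP against DEHP and in DEHP_GTP against Control livers 0 departed by limma, with or without trend and robust estimates, while 2.09% and 1.94% of genes tested did, and 1 and 2 members reached an unadjusted p under 0.05.

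Rpl37 and its copy Rpl37rt, near-identical in coding sequence, moved in opposite directions between libraries of 1 group. The genes of this and the next paragraphs were chosen after their values were seen, and the division of reads between copies is not stated in the labels or notes, so the values of Rpl37, Rps6 and their copies are uncertain. Rpl37, a 60S protein, was at 195, 202 and 190.4 in DEHP_GTP livers, 235, 178 and 136 in DEHP livers and 175, 160.3 and 185 in Control livers. Rpl37rt, a retrotransposed copy, was at 26.2, 31.9 and 35.1 in DEHP_GTP livers, 17.5, 114 and 119.5 in DEHP livers and 21.6, 26.7 and 15.8 in Control livers. Within DEHP, replicate 1 was high in Rpl37 and low in Rpl37rt, and replicates 2 and 3 the reverse.

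The sum of the pair was steadier, at 221, 234 and 225 in DEHP_GTP livers, 253, 293 and 256 in DEHP livers and 196, 187 and 201 in Control livers. All 3 DEHP sums lay above all Control sums, whereas Rpl37 alone overlapped, with a log2 fold change of 0.05 (SE 0.163, limma adjusted p = 0.869). In the GENCODE transcripts (GRCm38) the 294 coding bases of Rpl37 (chromosome 15) and Rpl37rt (chromosome 5) are 99.7% identical, with the single difference G249A, counted from the first base of the coding sequence of Rpl37. The longest transcript of Rpl37 has 835 bases, and its bases outside the coding sequence were not compared. The 60 bases that end at position 249, with it in capitals, show the difference between the coding sequences.
Rpl37: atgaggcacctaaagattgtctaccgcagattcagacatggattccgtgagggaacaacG
Rpl37rt: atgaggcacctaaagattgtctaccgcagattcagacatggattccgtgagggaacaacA

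Rpl23, a 60S protein that can also bind the p53 regulator Mdm2, split in the same libraries. It was at 175, 214 and 216 in DEHP_GTP livers, 250.1, 66.6 and 57.6 in DEHP livers and 165, 176 and 181 in Control livers. LOC100044627 and LOC100862455, which share 1 set of values in every library, are named here only by symbol and were not compared with Rpl23 in sequence, were at 189, 216 and 211 in DEHP_GTP livers, 248, 566 and 525 in DEHP livers and 171, 153 and 185 in Control livers. In DEHP replicates 2 and 3 Rpl23 was at its lowest and these symbols at their highest. The sum of Rpl23 and LOC100044627 was 364, 429.5 and 426 in DEHP_GTP livers. It was 498, 633 and 583 in DEHP livers and 336, 329 and 366 in Control livers. Whether the 2 symbols share reads was not tested. For Rpl23 the log2 fold change of DEHP over Control was -0.81 (SE 0.51, limma adjusted p = 0.296) and that of DEHP_GTP over DEHP was 1.01 (SE 0.51, limma adjusted p = 0.419). DEHP replicate 1 decided both. Without it Rpl23 was the 1 member called in DEHP_GTP against DEHP, at 1.68 (SE 0.113, limma adjusted p = 0.000545).

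Rps6, the phosphorylation target of the S6 kinases, was among the lowest members, at 14.1, 13.8 and 14.9 in DEHP_GTP livers, 13.4, 14.9 and 15.1 in DEHP livers and 10.8, 15.9 and 12.1 in Control livers, and its log2 fold change of DEHP over Control was 0.16 (SE 0.121, limma adjusted p = 0.36). The transcribed pseudogene Rps6-ps4 was at 673, 751 and 783 in DEHP_GTP livers, 793, 798 and 726 in DEHP livers and 651, 690.5 and 669.5 in Control livers. Rps6-ps4 was higher in every DEHP library than in every Control library and missed the threshold, with 0.20 (SE 0.0823, limma adjusted p = 0.0965). The 750 coding bases of Rps6 (chromosome 4) are 100% identical to the 750 bases of the Rps6-ps4 transcript (chromosome 2) in GENCODE, as their first 60 bases show.
Rps6: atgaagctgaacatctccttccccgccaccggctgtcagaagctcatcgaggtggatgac
Rps6-ps4: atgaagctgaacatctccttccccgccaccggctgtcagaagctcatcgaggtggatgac
No level of Rps6 as a gene can therefore be read from its symbol alone. The bases of Rps6 outside its coding sequence were not compared.

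**Figure D4:**
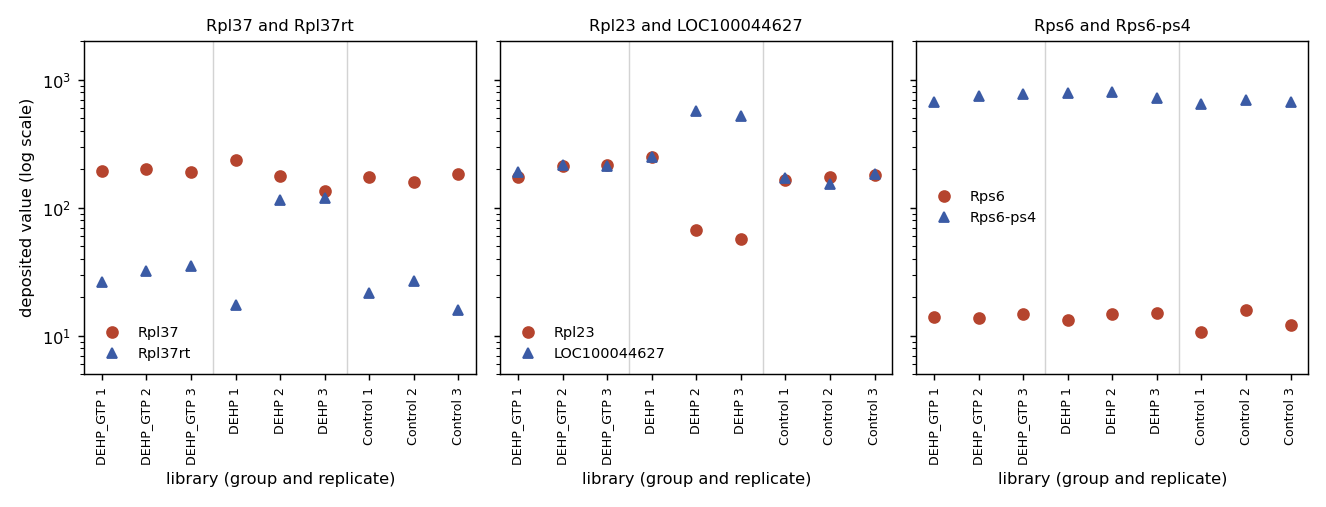
Deposited value (log scale) of 3 members (circles) and of a further symbol each (triangles) in the 9 libraries. In DEHP replicates 2 and 3 Rpl37rt is at 114 and 119.5, against 15.8 to 35.1 in the other libraries, Rpl23 is at 66.6 and 57.6, and Rps6 stays between 10.8 and 15.9 with Rps6-ps4 between 651 and 798.

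DEHP_GTP against DEHP asked what the polyphenols added to the phthalate. Values were a little lower in DEHP_GTP livers for nearly every member, and no single member passed the test. With limma 0 of 78 members were called, also without trend and robust estimates, and 0.0% of all genes tested were called. An unadjusted p under 0.05 was reached by 38 members and by 1524 of the 10388 genes. The median member was -0.19 on the log2 scale (0.875-fold), against -0.01 for the median gene. The member median was -0.11 with equal totals, -0.10 after quantile normalization, -0.07 after rescaling without the Mup genes and -0.06 after removal of the length trend. The difference was below 0 for 76 of 78 members, for 65 after rescaling without the Mup genes, for 69 after quantile normalization and for 55 of 77 after removal of the length trend. Without overlap, 42 members were lower in DEHP_GTP and 0 higher, where 10.4% of genes tested were lower and 8.89% higher without overlap.

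The 5 members with the smallest unadjusted p, none of which passed, were Rpl38, Rpl36a, Rplp1, Rpl34 and Rps26. Rpl38, a 60S protein needed in mouse embryos for translation of some Hox messenger RNAs, was at 1238, 1759.9 and 1552 in DEHP_GTP livers, 1990.1, 2121 and 2107 in DEHP livers and 1455, 1350.0 and 1423 in Control livers. DEHP_GTP replicate 1 was lowest of all 9 libraries, and the log2 fold change of DEHP_GTP over DEHP was -0.46 (SE 0.117, limma adjusted p = 0.142). Rps26, which contacts the messenger RNA upstream of the start codon, was at 1143, 1345 and 1414 in DEHP_GTP livers, 1671, 1560.4 and 1614 in DEHP livers and 1144, 1169 and 1213 in Control livers. Its log2 fold change was -0.32 (SE 0.0909, limma adjusted p = 0.166), with the DEHP_GTP libraries all below the DEHP libraries. Rpl34, a 60S protein, was at 472, 515 and 488 in DEHP_GTP livers, 619, 598 and 566 in DEHP livers and 440.3, 473 and 421 in Control livers. No DEHP_GTP library reached the DEHP range, at -0.27 (SE 0.0777, limma adjusted p = 0.166).

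For Rpl36a and Rplp1, whose values stand above, the log2 fold changes of DEHP_GTP over DEHP were -0.29 (SE 0.0771, limma adjusted p = 0.15) and -0.31 (SE 0.084, limma adjusted p = 0.152). Rplp2 was at -0.31, Rps27l at -0.27, Rpsa at -0.14, Rplp0 at -0.08 and Rps6 at -0.02, with limma adjusted p of 0.255, 0.264, 0.517, 0.677 and 0.968. Rplp0 and Rps6 turned above 0 under equal totals, quantile normalization, rescaling without the Mup genes and removal of the length trend. Rpl36 had the lowest value of DEHP_GTP over DEHP, -0.53 (SE 0.214, limma adjusted p = 0.3), and was at 316, 576 and 584 in DEHP_GTP livers, 712, 723 and 620.3 in DEHP livers and 451, 498 and 418 in Control livers. DEHP_GTP replicate 1, at 316, stood far below the 576 and 584 of the other libraries of its group.

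DEHP_GTP against Control asked how far livers given both differed from untreated ones. In that comparison 8 members were called higher and 0 lower. That is 10.3% of the set, close to the 9.68% of all genes tested that were called higher, with 0.76% called lower. The median member was 0.19 above Control on the log2 scale (1.14-fold), against 0.12 for the median gene. It was 0.10 after rescaling without the Mup genes, 0.07 after centring on the median gene, 0.03 after removal of the length trend and 0.02 after quantile normalization. All 78 differences were above 0 as deposited, 48 after quantile normalization and 54 of 77 after removal of the length trend. Libraries did not overlap for 43 members, all higher in DEHP_GTP, beside 31.8% of genes tested.

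Of the 8, 6 were of the large subunit. Rpl36a kept its call in 11 of 17 other settings, Rpl22 and Rpl23a in 6, Rps24 in 5, Rplp1 in 4 and Rpl39 in 3. Rpl4 and Rps7 lost their calls without a filter, without trend and robust estimates, with only the 6 libraries and with a replicate block. Rpl36a again had the largest value, 0.41 (SE 0.0771, limma adjusted p = 0.0137), and Rpl39 followed with 0.34 (SE 0.0951, limma adjusted p = 0.0492). Rpl23a, at the mouth of the exit tunnel, was at 908, 1018 and 989 in DEHP_GTP livers, 1124, 1181 and 1039.8 in DEHP livers and 774, 759 and 774 in Control livers, with a log2 fold change of DEHP_GTP over Control of 0.34 (SE 0.0797, limma adjusted p = 0.0301). Rpl22, a 60S protein that general translation can do without, was at 57.2, 62.4 and 61.1 in DEHP_GTP livers, 71.3, 70.3 and 63.4 in DEHP livers and 46.6, 50 and 47.7 in Control livers, with 0.32 (SE 0.0742, limma adjusted p = 0.0283). In both, Control livers were lowest and DEHP livers highest, with no overlap among the 3 groups. Rplp1 stood at 0.31 (SE 0.084, limma adjusted p = 0.0431). Rpl4, which lines the exit tunnel, was at 485, 504 and 518 in DEHP_GTP livers, 573, 524 and 508 in DEHP livers and 419, 419 and 419 in Control livers, with 0.26 (SE 0.0735, limma adjusted p = 0.0495).

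From the small subunit came Rps24 and Rps7, both among the genes of Diamond-Blackfan anaemia. Rps24 was at 452, 478 and 487 in DEHP_GTP livers, 539.6, 532 and 481 in DEHP livers and 386, 396 and 369.6 in Control livers, with a log2 fold change of DEHP_GTP over Control of 0.30 (SE 0.0763, limma adjusted p = 0.0378). Rps7 was at 339, 377 and 396 in DEHP_GTP livers, 453, 428 and 414 in DEHP livers and 296, 315 and 296 in Control livers, with 0.29 (SE 0.081, limma adjusted p = 0.0484). In both, every DEHP_GTP library lay above every Control library. Those not called included Rps27l at 0.23, Rplp0 at 0.18, Rplp2 at 0.18, Rps6 at 0.15 and Rpsa at 0.15. Without DEHP_GTP replicate 1 the count was 20 (25.6% of members against 9.93% of all genes called higher), it was 32 with totals made equal (41.0% against 18.8%), and without Control replicate 1 or 3 it was 0 (against 2.36% and 2.08%). The comparisons share libraries, so their values are given side by side and not tested against each other.

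Ribosomal protein messenger RNAs are short, and length moved with the differences. The longest annotated transcript had a median of 914 bases over 77 members, against 2967 bases over all genes tested. Across members, the Spearman correlation of the log2 fold change of DEHP over Control with length was -0.45 (77 members), and across the 10159 genes tested with a length it was -0.278, as a description of genes that share the same libraries. The 9 members of up to 500 bases had a median log2 fold change of 0.59, against 0.38 for 35 other genes of that length. Between 500 and 1000 bases it was 0.41 for 35 members and 0.35 for 507 other genes, and between 1000 and 1500 bases 0.36 for 21 members and 0.23 for 992 other genes. In these 3 classes the members stood above other genes by less than the 0.28 by which they stood above all genes. The same held from 1500 to 2000 bases (0.37 against 0.19), from 2000 to 3000 (0.31 against 0.135) and over 5000 (0.27 against 0.05). Only the class of 3000 to 5000 bases, which holds 1 member, Rps20, stood above by more, at 0.51 against 0.07. For DEHP_GTP over DEHP the 3 shortest classes gave -0.29, -0.19 and -0.20 for members and -0.22, -0.20 and -0.11 for other genes.

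**Figure D5:**
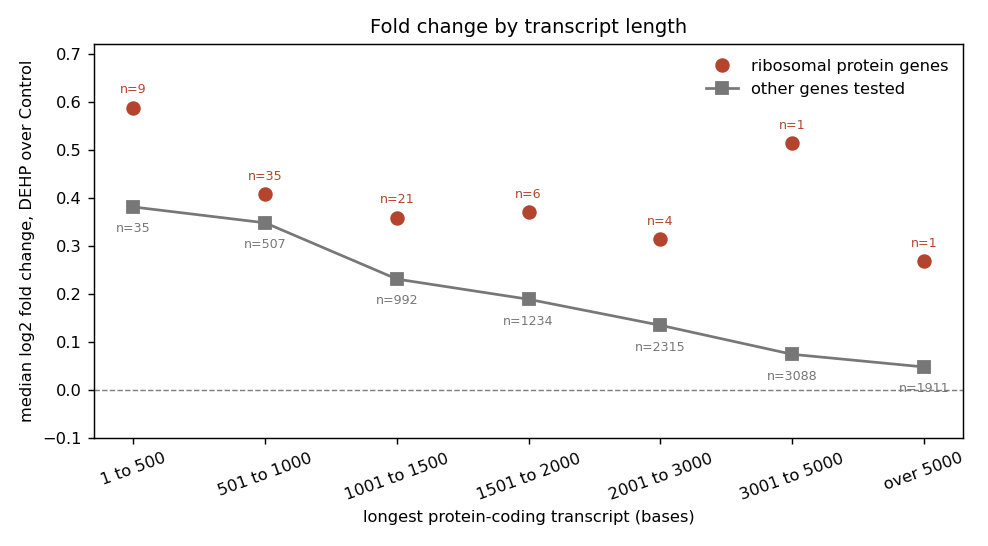
Median log2 fold change of DEHP over Control (y axis) by length of the longest protein-coding transcript (x axis) for ribosomal protein genes (circles) and all other genes tested (squares), with the number of genes. Other genes run from 0.38 in the shortest class to 0.05 above 5000 bases, and the classes of members beyond 1500 bases hold 1 to 6 genes.

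Once the trend on length was removed, 4 members were called higher in DEHP than in Control livers, at 0.44 for Rps20 (SE 0.110), 0.35 for Rpl12 (SE 0.082), 0.34 for Rpl22 (SE 0.0708) and 0.24 for Rps24 (SE 0.0723). Their longest annotated transcripts, the lengths used for the trend, are 3706, 1242, 2051 and 1613 bases. All 4 exceed the member median of 914. Whether these are the transcripts present in liver was not tested. Rps20, which takes part in the head of the 40S subunit, was at 30.3, 39.3 and 35.9 in DEHP_GTP livers, 38.5, 44.0 and 39.9 in DEHP livers and 26.3, 28.4 and 30.0 in Control livers. Rpl12, at the base of the stalk, was at 532, 639 and 668 in DEHP_GTP livers, 775, 759 and 733 in DEHP livers and 490.4, 502 and 518 in Control livers. For both, all DEHP libraries lay above all Control libraries in the deposited values. Rpl22 was called in all 17 other settings tried for this comparison, and Rpl12 and Rpl36a in 16.

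Ribosomal protein genes outside the name patterns were called in part. Fau, whose fusion protein releases the 40S protein Rps30, was at 728, 929.7 and 951 in DEHP_GTP livers, 991, 1041 and 1098 in DEHP livers and 706, 701 and 812 in Control livers, with a log2 fold change of DEHP over Control of 0.50 (SE 0.113, limma adjusted p = 0.00995). Rps3a1, named outside the rule, was at 399.9, 443 and 455 in DEHP_GTP livers, 481, 466 and 414 in DEHP livers and 368, 387 and 362 in Control livers, with 0.28 (SE 0.0852, limma adjusted p = 0.0355). Both rose in DEHP livers without overlap. In the list of paralogs and fusions that holds Fau, 2 of 5 tested genes rose and 0 fell, and the paralogs Rpl22l1, Rpl7l1 and Rpl36al were not called.

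Further translation genes with TOP messenger RNAs moved in part with the members. Of 20 tested, 10 rose and 0 fell in DEHP against Control livers, with a median of 0.24 on the log2 scale, beside 21.6% of all genes called higher. Eif4a2, a helicase of initiation, was at 142, 131 and 132 in DEHP_GTP livers, 121, 140.2 and 117 in DEHP livers and 77.9, 80.6 and 69.2 in Control livers, with 0.72 (SE 0.0913, limma adjusted p = 0.000717). Eef1b2, an exchange factor of elongation, was at 68.5, 70.9 and 69.6 in DEHP_GTP livers, 76.1, 78.6 and 70.9 in DEHP livers and 52.2, 56.5 and 52.4 in Control livers, with 0.48 (SE 0.0703, limma adjusted p = 0.00136). Tpt1, the abundant translationally controlled tumour protein, was at 1594, 1735 and 1691 in DEHP_GTP livers, 1978, 1964 and 1782 in DEHP livers and 1325, 1397 and 1406 in Control livers, with 0.47 (SE 0.0784, limma adjusted p = 0.00237). Each stood above Control without overlap in both phthalate groups. Eef1a1 and Eef2, the main elongation factors and named outside the rule, were not called, at 0.19 and 0.12.

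Ribosome assembly genes gave few calls. Of 64 biogenesis factors tested, 8 rose and 1 fell in DEHP against Control livers, with a median of 0.04 on the log2 scale. The 8 are 12.5% of the list, beside the 21.6% of all genes called higher. Nop10 and Nhp2, 2 proteins of the H/ACA particles that guide pseudouridylation of ribosomal RNA, rose by 0.59 (SE 0.0832, limma adjusted p = 0.00112) and 0.56 (SE 0.0788, limma adjusted p = 0.00114). Sbds, which frees the 60S subunit for joining, rose by 0.51 (SE 0.0877, limma adjusted p = 0.00273). Riok2, a kinase of late 40S maturation, was the one that fell, at 8.62, 8.87 and 9.11 in DEHP_GTP livers, 6.06, 6.80 and 6.55 in DEHP livers and 8.44, 7.89 and 8.51 in Control livers, with a log2 fold change of -0.31 (SE 0.0747, limma adjusted p = 0.0124). Of 31 genes of RNA polymerases I and III, 1 (3.23%) rose and 0 fell, namely Polr1d, a subunit of both, with 0.40 (SE 0.065, limma adjusted p = 0.00217).

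Among 29 regulators of ribosomal protein synthesis, 5 rose and 0 fell, a share of 17.2% called higher that lies below the 21.6% of all genes. Cnbp, a zinc finger protein that binds TOP messenger RNAs, rose by 0.48 (SE 0.0681, limma adjusted p = 0.00114). Mtor, the kinase of mTORC1, was at 6.96, 7.51 and 6.80 in DEHP_GTP livers, 7.75, 6.88 and 6.76 in DEHP livers and 5.27, 5.87 and 4.62 in Control livers, with 0.38 (SE 0.095, limma adjusted p = 0.0152). Ddit4, a stress-induced inhibitor of mTORC1, was at 1.85, 3.95 and 5.63 in DEHP_GTP livers, 10.8, 10.8 and 16.8 in DEHP livers and 3.85, 6.43 and 5.08 in Control livers, with 1.17 (SE 0.318, limma adjusted p = 0.0299). DEHP livers were the highest for Ddit4, while the DEHP_GTP and Control ranges overlapped. Myc, an activator of ribosome genes named outside the rule, was at 8.25, 6.41 and 3.29 in DEHP_GTP livers, 1.47, 1.18 and 1.96 in DEHP livers and 3.35, 4.22 and 2.23 in Control livers and was not called in DEHP against Control livers (log2 fold change -0.73 (SE 0.285, limma adjusted p = 0.093)).

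Of 33 initiation factors 7 rose and 0 fell, a share of 21.2% called higher that is close to the 21.6% of all genes. Among them were Denr and Mcts1, partners in recycling and reinitiation, with 0.45 (SE 0.0859, limma adjusted p = 0.0045) and 0.31 (SE 0.069, limma adjusted p = 0.00955), and Eif3m with 0.33 (SE 0.0788, limma adjusted p = 0.0129). Of 13 elongation and termination factors 4 (30.8%) rose and 0 fell. These were Hbs1l and Pelo, which rescue stalled ribosomes, Eefsec, the selenocysteine elongation factor, and Dph1, of diphthamide synthesis. Hbs1l, Eefsec and Dph1 had log2 fold changes of 0.42, 0.38 and 0.38, with limma adjusted p of 0.00595, 0.00699 and 0.0108.

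In DEHP_GTP against DEHP livers 0 of the 195 genes tested of these 7 lists were called by limma, with or without trend and robust estimates, and 23 reached an unadjusted p under 0.05. Against Control, DEHP_GTP livers had 4 of 20 TOP genes, 0 of 5 paralogs and fusions, 5 of 64 biogenesis factors, 1 of 31 polymerase genes, 3 of 29 regulators, 2 of 33 initiation factors and 1 of 13 elongation and termination factors higher, and 0 lower, beside the 9.68% of all genes called higher. The shares of the biogenesis factors (7.81%), elongation and termination factors (7.69%), initiation factors (6.06%) and polymerase genes (3.23%) lie below that background, and that of the regulators (10.3%) is close to it. Eif4a2 had the largest value among them, 0.83 (SE 0.0913, limma adjusted p = 0.00174), followed by Hbs1l with 0.47 (SE 0.0861, limma adjusted p = 0.0135) and Pdcd4, an inhibitor of the helicase Eif4a1, with 0.44 (SE 0.119, limma adjusted p = 0.0447). Sbds, Las1l, Nop10, Mtor and Eef1b2 lay between 0.37 and 0.42. Eif2d, Eif3e, Eif3a, Tpt1, Cnbp and Polr1d lay between 0.27 and 0.35.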

How the data were processed

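Libraries were made from fragmented poly(A) RNA copied with random hexamers, per the labels' protocols. The submitters' processing notes list limma, CASAVA 1.7 and the build mm9 without saying what each did. No aligner, counting tool or gene annotation is named there. The authors deposited 1 non-negative signal per symbol and library, scaled from its values by depth and transcript length.

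Genes at 1 or more in at least 3 libraries (10388) were tested as log2(value + 1) in 1 limma model of all 9 libraries (version 3.58.1, R 4.3.3, trend and robust variance estimates), with Benjamini-Hochberg adjustment over all genes tested in each of 3 comparisons and a call at an adjusted p below 0.05. Lengths are of the longest GENCODE M21 protein-coding transcript (97.8% of genes tested). The code was tested on simulated data.

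The members and the lists (TOP messenger RNAs, paralogs and fusions, biogenesis factors, polymerases, regulators, initiation and elongation factors, and cell type markers) were chosen with earlier results of these data known. Named were the 6 largest called differences without overlap, members called in the minority direction, members departing from the set, the 5 smallest p where fewer than 5 were called, Rplp0, Rplp1, Rplp2, Rpsa, Rps6 and the paralogs, and up to 3 called genes per list. Others named were chosen after their values were seen. Some genes that this rule names are not reported here; counts and medians include them.

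Alternatives were 4 other scalings, removal of the length trend (lowess per library, span 0.3), no filter, a pseudocount of 0.1, limma without trend and robust estimates, only the 6 libraries compared, a replicate block, only Control replicate 3 for the Control arm and leaving out each library.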

Additional observations from a re-analysis of the deposited data

How the results depend on the processing

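For DEHP against Control, the 66 members called became 9 after quantile normalization, 29 after centring on the median gene, 13 after rescaling without the Mup genes, 4 after removal of the length trend and 3 with replicate 3 as the only Control library, which leaves that arm with 1 library. Leaving out single libraries gave 43 to 64, the lowest without Control replicate 1, and without DEHP replicate 1 the 56 calls were 55 higher and 1 lower. The member median was above 0 in each of these settings (0.09 to 0.42). The 38 calls in the 7 other lists became 15, 24, 18, 17 and 8 in the same 5 settings, and 23 to 40 without single libraries. The 3 departures from the set became 0 with the lone control and 0 to 4 without single libraries.

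For DEHP_GTP against DEHP, members called were 0 in each setting except without DEHP replicate 1, where Rpl23 gave 1 (leave-one-out range 0 to 1). Departures were 0 to 1 there too, and the other lists gave 0 to 1 without single libraries and 1 after rescaling without the Mup genes.

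For DEHP_GTP against Control, the 8 members called became 32 with equal totals, 0 after quantile normalization, centring or removal of the length trend, 1 after rescaling without the Mup genes, 3 without a filter, 5 without trend and robust estimates, 4 with only the 6 libraries and 0 with the lone control. Leaving out single libraries gave 0 to 20, the highest without DEHP_GTP replicate 1. The 16 calls in the other lists became 33 with equal totals, 1 after quantile normalization, centring or removal of the length trend, 2 without the Mup genes, 8 without a filter, 0 with the lone control and 1 to 12 without single libraries.

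Same-numbered libraries correlated at -0.263 to 0.17 in their deviations from group means, and differently numbered ones at -0.139 to 0.258. Deviations within a group of 3 sum to 0, so these values cannot decide whether replicate numbers pair the libraries. With a replicate block the members called were 62 in DEHP against Control, 0 in DEHP_GTP against DEHP and 1 (Rpl36a) in DEHP_GTP against Control, departures were 3 (Rpl36a, Rpl8 and Rpl37, the last at -0.36 with limma adjusted p = 0.0438, and no longer Rps12), 0 and 0, and the other lists gave 35, 0 and 7.

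Over all members, 10 of 78 were below 0 in DEHP against Control after quantile normalization, 5 without the Mup genes and 15 of 77 without the length trend, against 1 as deposited. Of the genes named by rule, these changed sign. In DEHP against Control, Mcts1 was -0.035 after removal of the length trend. Rpl8 was -0.137 after quantile normalization, -0.0725 without the Mup genes and -0.137 without the length trend, and Rps6 was -0.00622, -0.0384 and -0.154 in those settings. In DEHP_GTP against DEHP, with equal totals, quantile normalization, rescaling without the Mup genes and removal of the length trend, Rplp0 was 0.00168, 0.0113, 0.0468 and 0.00769 and Rps6 was 0.0604, 0.00792, 0.102 and 0.139. Leaving out single libraries took Rps6 between -0.0665 and 0.0137. In DEHP_GTP against Control, Rplp2 was -0.00354 and Rpsa -0.018 after quantile normalization, and Rps6 was -0.0154 without the length trend. The causes were not tested, and read depth is unknown, so counting error cannot be given.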
